A study of Homo sapiens with 12 samples.

Results

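The galectin family was examined as 9 genes (LGALS1, LGALS2, LGALS3, LGALS4, LGALS7, LGALS8, LGALS9, LGALS9B and LGALS9C), which are 9 of the 58735 genes in the count table. They were found by gene symbol, and each symbol matched 1 row. A549 is an established line of human lung adenocarcinoma cells that grow attached to the dish, and GFI1 is a transcription factor known from blood stem cells and progenitors. The study asked what GFI1 does to anchorage in lung cancer cells. Its 12 RNA-Seq libraries fall into 4 groups of 3: attached control A549, attached A549 expressing GFI1, floating control A549 and floating A549 expressing GFI1. Floating cells had been kept in forced suspension for 48 hours. All cells were grown in RPMI1640 with serum, and the GFI1 cells were a pool of lentivirally transduced cells sorted for GFP. No label tells whether an empty vector was used in the controls. The study describes empty-vector A549 cells as controls in its mouse assays but does not say so for RNA-Seq. With the RNA-Seq controls unspecified, GFI1 expression and transduction itself cannot be told apart in the GFI1 comparisons.

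Galectins are small lectins, proteins that bind β-galactosides such as the N-acetyllactosamine units of cell-surface glycans. They are made in the cytosol and leave the cell without a signal peptide. Outside the cell they crosslink glycoproteins such as integrins, CD44 and mucins, and inside it they mark damaged endosomes and lysosomes whose glycans have become exposed. The family is divided into prototype galectins with 1 carbohydrate-recognition domain (LGALS1, LGALS2 and LGALS7), the chimera galectin-3 with a long N-terminal tail (LGALS3), and tandem-repeat galectins with a pair of linked domains (LGALS4, LGALS8 and LGALS9).

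The libraries held from 17014188 to 20748677 counts, and 17829 genes were kept for testing, 8 of the 9 galectins among them. Levels are given as CPM, counts divided by library size after TMM, a scaling through genes that differ little between libraries. The floor of 3 counts lay between 0.138 and 0.181 CPM. GFI1 itself was at 0.471 CPM in attached and 0.624 CPM in floating controls, and at 290.1 and 560.1 CPM in the GFI1 groups, so every library matched its label as control or GFI1. This does not check attached against floating. KRT7, KRT8 and KRT18 were the abundant epithelial markers, and the 6 epithelial markers summed to between 3039 and 10986 CPM, while PTPRC, a marker of every leukocyte, stayed at or below 0.035 CPM as a group mean. The epithelial sum was lower in the GFI1 groups (4222 to 4339 CPM attached and 3039 to 3411 floating) than in the controls (10386 to 10986 and 6529 to 6938). CDH1 (E-cadherin) was at 119.8 CPM in attached controls and at 6.45 in attached GFI1 cells. The 5 leukocyte markers summed to between 4.17 and 13.8 CPM per library and the 3 fibroblast markers to between 5.29 and 14.1. CD14, a monocyte marker among the 5, was at 5.37 CPM in attached controls, 4.48 in attached GFI1 cells, 12.3 in floating controls and 6.94 in floating GFI1 cells. Among the fibroblast markers, PDGFRB was at 0.133 CPM in attached controls and 2.22 in attached GFI1 cells. COL1A1 was at 13.0 and 6.37 CPM in the same groups. The 3 endothelial markers summed to between 0.109 and 0.602 CPM in controls and between 3.55 and 5.52 CPM with GFI1. The part of these differences in the galectin results was not tested. Nothing in the labels says that the 3 libraries of a group came from separate cultures, so p values measure the spread between these libraries, which may be technical. In whole-culture RNA, fewer cells that express a gene and less mRNA per cell cannot be told apart.

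The family was chosen by its measured values, namely the rise of LGALS9B and LGALS9C in attached GFI1 cells, the pair with the highest fold changes among its members. The GFI1 effect in attached cells is therefore given as a description, with fold changes and standard errors (SE) but no p value for any of these 9 genes. The GFI1 effect in floating cells compares none of those 6 libraries and was tested. The spread per gene, the scaling and the low-count filter came from all 12 libraries, so this test is not fully independent of the choice. The suspension effects have the attached libraries as their baseline, so they were tested for the other galectins and are a description for LGALS9, LGALS9B and LGALS9C. The threshold was an adjusted p of 0.05 or less. In attached cells, 4 galectins lay past it as higher and 1 as lower with GFI1, where 62.3% of all genes were past it (29.5% higher and 32.8% lower). The choice of the family fixed part of this count, and nothing is read from it. In floating cells, 4 of 8 rose (LGALS3, LGALS9, LGALS9B and LGALS9C) and 2 fell (LGALS1 and LGALS2), where 60.4% of all genes passed (29.3% higher and 31.1% lower). The median log2 fold change over the 8 galectins was 1.06 in attached and 0.97 in floating cells, beside -0.0066 and 0.011 over all genes tested. These medians include LGALS9, LGALS9B and LGALS9C, so the choice of the family fixed part of them, and nothing is read from them. Of the 5 galectins tested outside LGALS9, LGALS9B and LGALS9C, 1 was higher and 2 were lower with GFI1 in floating cells.

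**Figure D1:**
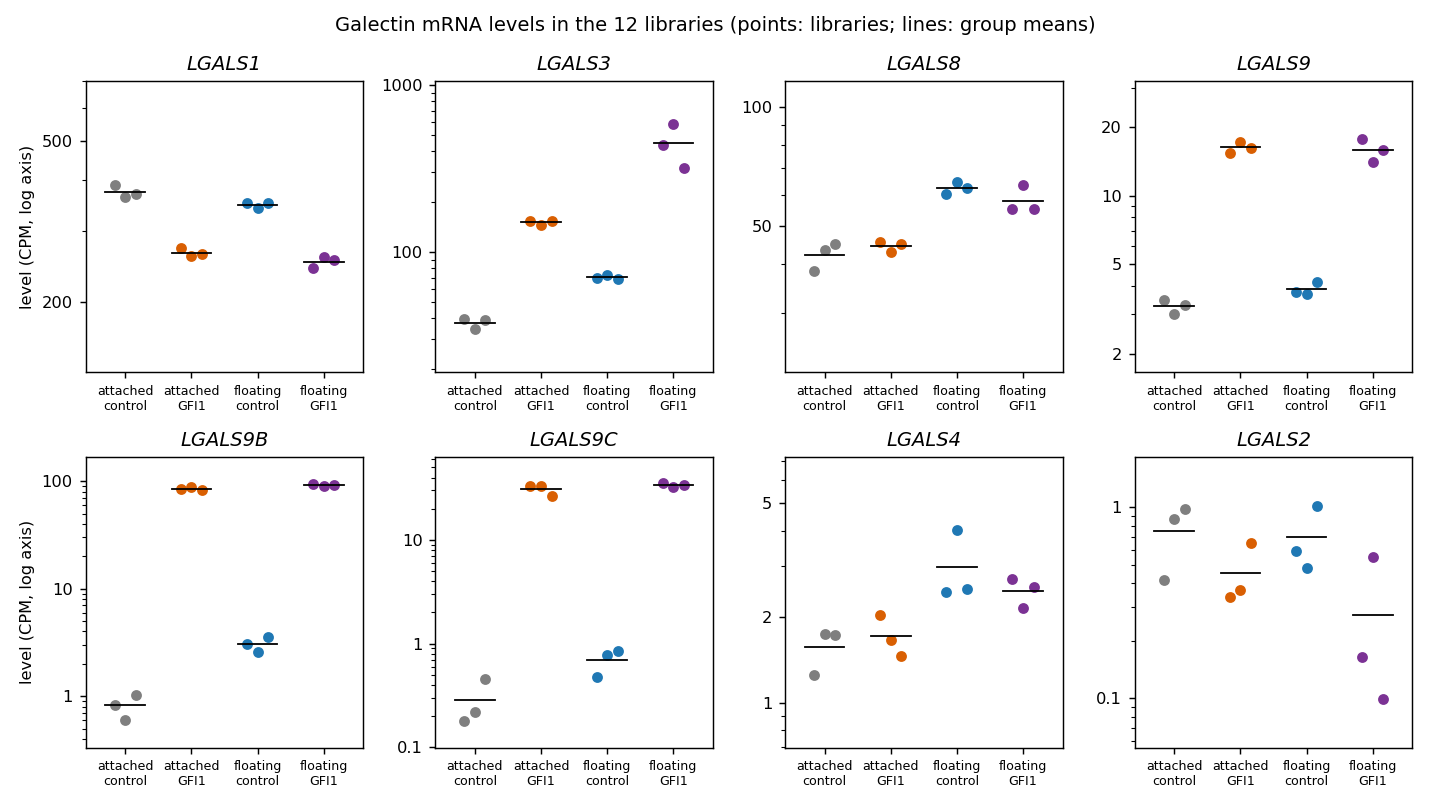
Level of each galectin in the 12 libraries, in CPM on log axes that differ between panels, with points for libraries and lines for group means. LGALS9B lies between 0.597 and 3.57 CPM in the 6 control libraries and between 82.7 and 93.8 CPM in the 6 GFI1 libraries. LGALS7, at 0 counts throughout, is not drawn.

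LGALS9 encodes galectin-9, a tandem-repeat galectin known as an immune regulator and a ligand of TIM-3, and its transcription is known to respond to interferon. LGALS9B and LGALS9C are near-identical copies of it. In the table, LGALS9 (ENSG00000168961) lies on the plus strand of chromosome 17 from 27629798 to 27649560 (GRCh38). LGALS9B (ENSG00000170298) lies on the minus strand from 20449395 to 20467539, and LGALS9C (ENSG00000171916) on the plus strand from 18476737 to 18494945. Their main GENCODE transcripts are 1724, 1718 and 1715 bases long. LGALS9 is 95.87% identical to LGALS9B and 95.8% to LGALS9C, and LGALS9B and LGALS9C are 99.18% identical to each other. Of all stretches of 150 bases in these transcripts, 0% of those of LGALS9, 29.3% of those of LGALS9B and 29.4% of those of LGALS9C also occur in another galectin transcript. For stretches of 50 bases, the shares are 21.3%, 69.4% and 74.0%. How the counting treated reads that match more than 1 copy was not given in the sources used here, so the split among the copies is uncertain.

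The promoters of the copies are shown because the mRNAs of all 3 rose with GFI1 in floating cells. Each window is from RefSeq (GRCh38.p14) and runs from 250 bases before the annotated start through the first 50 bases of the transcript, in the direction of the gene. Capitals mark bases that differ among the 3 copies.
LGALS9: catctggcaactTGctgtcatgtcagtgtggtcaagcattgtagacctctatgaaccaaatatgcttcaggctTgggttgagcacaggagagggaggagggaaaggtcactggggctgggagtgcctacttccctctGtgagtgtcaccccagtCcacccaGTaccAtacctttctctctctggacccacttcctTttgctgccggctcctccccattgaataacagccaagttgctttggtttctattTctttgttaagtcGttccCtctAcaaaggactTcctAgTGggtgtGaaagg
LGALS9B: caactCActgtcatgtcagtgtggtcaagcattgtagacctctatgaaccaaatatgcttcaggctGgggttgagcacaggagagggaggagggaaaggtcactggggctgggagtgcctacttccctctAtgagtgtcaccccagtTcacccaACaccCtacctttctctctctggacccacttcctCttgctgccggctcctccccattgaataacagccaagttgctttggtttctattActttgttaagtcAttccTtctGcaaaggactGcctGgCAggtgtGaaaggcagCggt
LGALS9C: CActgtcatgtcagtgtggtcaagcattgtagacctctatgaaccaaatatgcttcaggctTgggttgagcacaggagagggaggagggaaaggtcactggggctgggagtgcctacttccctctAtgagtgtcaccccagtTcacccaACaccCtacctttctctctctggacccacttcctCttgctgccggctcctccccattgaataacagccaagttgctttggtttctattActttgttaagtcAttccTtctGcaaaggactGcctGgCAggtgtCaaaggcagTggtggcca
The LGALS9 window starts inside the gene interval of the count table, since the RefSeq start lies downstream of the table's. The windows are chr17:27630938-27631237 on the plus strand for LGALS9, chr17:20467490-20467789 on the minus strand for LGALS9B and chr17:18476539-18476838 on the plus strand for LGALS9C. The LGALS9 window differs from LGALS9B at 17 of 293 aligned bases (94.2% identity) and from LGALS9C at 17 of 288 (94.1%). LGALS9B and LGALS9C differ at 3 of 295, namely G67T, G288C and C297T, counted from the first base of the LGALS9B window.

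The core of the interferon-stimulated response element, searched on both strands, was found in the LGALS9 window and in neither copy. It lies on the minus strand from base 242 of the window, where the plus strand reads TTTCTATTTC. Both copies differ from LGALS9 inside this match at T250A, counted from the first base of the LGALS9 window. Of 35116 RefSeq promoters of the same length, 3.574% hold this core. The STAT palindrome TTCNNNGAA (7.657% of promoters), the GFI1 consensus (0.1908%), its core AATC (68.99%), the AP-1 site TGANTCA (7.709%) and the hypoxia response core ACGTG (21.41%) had no match in the windows of the 3 copies. These letters were chosen with the expression results known, and a match describes the sequence and not binding.

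LGALS9B held most of the counts of the 3 copies in GFI1 cells. Its level was 0.834, 0.597 and 1.03 CPM in attached controls and 84.8, 87.8 and 82.7 CPM in attached GFI1 cells. In floating cells it was 3.08, 2.59 and 3.57 CPM in controls and 93.8, 91.1 and 93.0 CPM with GFI1. All 6 GFI1 libraries lay above all 6 control libraries. The log2 fold change with GFI1 was 6.69 ± 0.10 (SE) in attached cells. In floating cells it was 4.90 ± 0.08, a 29.9-fold rise (adjusted p = 8.22e-25, edgeR quasi-likelihood test).

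LGALS9C followed at lower levels. Attached controls held 3, 4 and 8 counts (0.179, 0.217 and 0.459 CPM) and attached GFI1 cells 33.4, 33.4 and 26.5 CPM. Floating controls held 8, 13 and 15 counts (0.474, 0.783 and 0.850 CPM) and floating GFI1 cells 35.2, 32.3 and 34.1 CPM. The controls were close to the floor of 3 counts, so the size of the change rests on few counts, while the groups did not overlap. In attached cells the log2 fold change was 6.74 ± 0.19. In floating cells it was 5.57 ± 0.16 (47.6-fold, adjusted p = 5.09e-20).

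LGALS9 itself rose by less. Attached controls were at 3.45, 2.99 and 3.27 CPM and attached GFI1 cells at 15.5, 17.3 and 16.2 CPM. Floating controls were at 3.73, 3.67 and 4.14 CPM and floating GFI1 cells at 17.8, 14.1 and 15.9 CPM. Here too every GFI1 library lay above every control library. In attached cells this was a log2 fold change of 2.34 ± 0.12. In floating cells it was 2.04 ± 0.12 (4.13-fold, adjusted p = 7.33e-14).

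Summing the 3 rows removes any effect of how reads were split among the copies. It does not recover reads that the counting may have dropped because they match more than 1 copy. The sum, the shares and the ratio given here all carry this limit. The sum was 4.34 ± 0.49 CPM in attached controls and 132.6 ± 6.6 in attached GFI1 cells, and 7.63 ± 0.81 in floating controls and 142.4 ± 4.7 in floating GFI1 cells (SD, n = 3 each). On the log2 scale, the sum differed by 4.93 ± 0.08 (SE) between attached groups and by 4.22 ± 0.07 between floating groups. LGALS9 held 74.9% of the summed counts in attached controls and 50.6% in floating controls, but 12.3% and 11.2% in the GFI1 groups. LGALS9B was the main row in both GFI1 groups, with 64.3% and 65.1%. The ratio of LGALS9B to LGALS9C counts was 2.74 in both GFI1 groups, 2.87 in attached controls and 4.39 in floating controls, where LGALS9C counts were few.

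**Figure D2:**
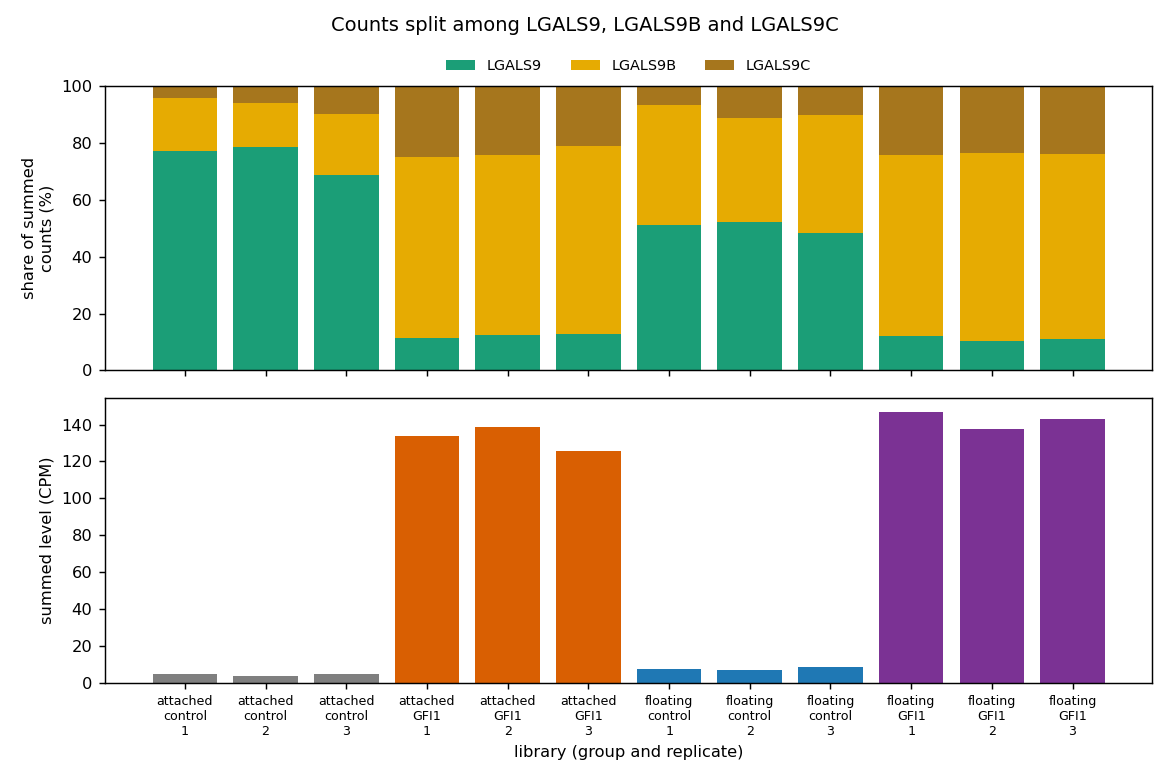
Upper bars: share of the summed LGALS9, LGALS9B and LGALS9C counts (%) that each gene held in each library. Lower bars: the summed level in CPM. LGALS9 holds 48.3% to 78.6% in the control libraries and 10.2% to 12.9% in the GFI1 libraries.

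LGALS9B and LGALS9C were also higher in floating than in attached control cells, given without p values because the attached libraries led to their choice. LGALS9B was higher by 1.91 ± 0.20 on the log2 scale (3.76-fold), with no overlap between the groups. LGALS9C was higher by 1.28 ± 0.43, from few counts. For LGALS9, the log2 fold change was 0.25 ± 0.15. The summed copies differed by 0.82 ± 0.12. Of the 5 galectins tested outside the copies, 3 rose (LGALS3, LGALS4 and LGALS8) and 1 fell (LGALS1) with suspension in control cells, where 40.1% of all genes passed the threshold (19.6% higher and 20.5% lower).

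In GFI1 cells, the copies differed less between floating and attached cells, with log2 fold changes of -0.04 ± 0.09 for LGALS9, 0.12 ± 0.05 for LGALS9B and 0.12 ± 0.09 for LGALS9C. Of the 5 galectins tested outside the copies, 2 rose with suspension in GFI1 cells (LGALS3 and LGALS8) and 0 fell, where 31.3% of all genes passed (15.0% higher and 16.3% lower). The suspension effect in GFI1 cells minus that in control cells was -0.29 ± 0.18 for LGALS9, -1.79 ± 0.21 for LGALS9B and -1.16 ± 0.44 for LGALS9C, again without p values.

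LGALS3 encodes galectin-3, the chimera galectin, which crosslinks surface glycoproteins as oligomers and is recruited to damaged lysosomes. It lies on the plus strand of chromosome 14 from 55124110 to 55145413 (ENSG00000131981). Its level was 39.5, 34.3 and 39.3 CPM in attached controls and 153, 146 and 154 CPM in attached GFI1 cells. In floating cells it was 69.9, 73.0 and 68.7 CPM in controls and 438, 586 and 317 CPM with GFI1. The 4 groups did not overlap, in the order attached control, floating control, attached GFI1 and floating GFI1. The 3 floating GFI1 libraries differed most among themselves.

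LGALS3 was higher with GFI1 in floating cells by 2.66 ± 0.13 on the log2 scale (6.33-fold, adjusted p = 1.25e-15), and the log2 fold change in attached cells was 2.00 ± 0.13. It was higher in floating than in attached cells by 0.90 ± 0.14 for controls (1.87-fold, adjusted p = 9.59e-06). For GFI1 cells this was 1.57 ± 0.12 (2.96-fold, adjusted p = 1.61e-10). The suspension effect was larger in GFI1 cells by 0.66 ± 0.18 (adjusted p = 0.0186). Of the 5 galectins tested for this interaction, LGALS3 was the 1 that passed, where 10.8% of all genes did (4.76% higher and 6.01% lower). The call of LGALS3 was lost with DESeq2 (0.65, adjusted p = 0.0827) and without attached control replicate 1 (0.63, adjusted p = 0.0530) or replicate 3 (0.63, adjusted p = 0.0545).

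The spread of LGALS3 among floating GFI1 libraries ran alongside that of GFI1. GFI1 was at 545, 706 and 430 CPM in floating GFI1 replicates 1, 2 and 3, and LGALS3 was at 438, 586 and 317 CPM. Both were highest in replicate 2 and lowest in replicate 3. Without replicate 3, the log2 fold change of LGALS3 with GFI1 in floating cells was 2.86, and without replicate 2 it was 2.42. Replicates 2 and 3 also differed most over all genes, with a chi-square per gene of 11.2 against 1.98 to 4.78 for the other pairs within groups, and the part of this in the spread of LGALS3 was not tested. GFI1 differed by less among attached GFI1 replicates (290.4, 294.4 and 285.6 CPM), as did LGALS3. There the order was reversed, with LGALS3 at 153, 146 and 154 CPM, lowest in replicate 2 and highest in replicate 3. Of the other galectins, LGALS4, LGALS9, LGALS9B and LGALS9C were lowest in floating GFI1 replicate 2 within that group. LGALS1, LGALS2 and LGALS8 were highest in it. Whether LGALS3 follows the level of GFI1 was not tested.

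The LGALS3 promoter window (chr14:55129002-55129301, plus strand, RefSeq, GRCh38.p14) is shown for contrast with the LGALS9 copies, as the gene outside the copies with the highest fold change with GFI1 among the 9, and it has no capitals because it was compared with no other sequence.
LGALS3: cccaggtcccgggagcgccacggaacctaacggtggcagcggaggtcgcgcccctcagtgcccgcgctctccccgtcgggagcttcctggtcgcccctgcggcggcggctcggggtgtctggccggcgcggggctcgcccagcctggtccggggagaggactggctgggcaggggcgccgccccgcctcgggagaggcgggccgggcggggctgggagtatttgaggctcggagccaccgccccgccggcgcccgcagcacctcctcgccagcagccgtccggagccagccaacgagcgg
It starts inside the gene interval of the count table, since the RefSeq start lies downstream of the table's. None of the 6 motifs searched in the LGALS9 copies had a match in it.

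**Figure D3:**
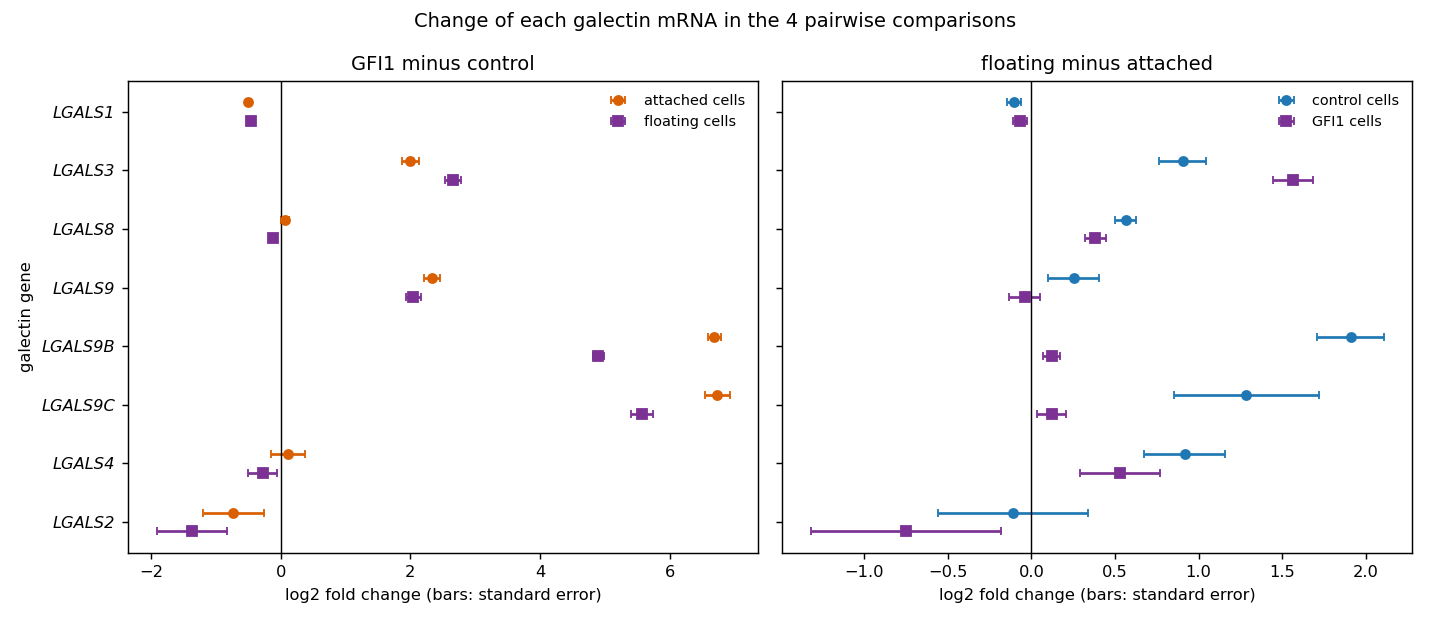
Log2 fold change of each tested galectin with GFI1 (left) and with suspension (right), on axes that differ in range. Points are fitted values and bars are standard errors, which are smaller than some points. LGALS9B and LGALS9C lie farthest right with GFI1, at 4.90 to 6.74, and LGALS3 lies above 0 in all 4 comparisons.

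LGALS1 encodes galectin-1, a prototype galectin that acts as a homodimer and binds integrins and laminin. It lies on chromosome 22, plus strand, from 37675608 to 37679806 (ENSG00000100097). Per kilobase of gene length it had the highest mean level of the family in every group, although LGALS3 exceeded it in floating GFI1 replicate 2 (244.5 against 235.6 CPM per kb). Its level was 389, 363 and 369 CPM in attached controls, 272, 260 and 262 in attached GFI1 cells, 350.5, 340.5 and 350.7 in floating controls, and 242, 259 and 254 in floating GFI1 cells. All GFI1 libraries lay below all control libraries.

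With GFI1, LGALS1 differed by -0.50 ± 0.04 on the log2 scale in attached cells. In floating cells it fell by 0.46 ± 0.04 (1.38-fold lower, adjusted p = 5.17e-10). In control cells it fell by 0.11 ± 0.04 with suspension (adjusted p = 0.0438), and in GFI1 cells the value was -0.07 ± 0.04 (0.218), with a difference between the effects of 0.04 ± 0.06 (0.786). The call in control cells was near the threshold and was lost under 5 of 8 alternative settings (adjusted p from 0.0515 to 0.0962) and without any 1 of 5 of the 6 libraries, all but attached control replicate 2.

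LGALS2, a prototype galectin known mainly from the gut, was close to the floor. Attached controls were at 0.417, 0.869 and 0.976 CPM and attached GFI1 cells at 0.338, 0.369 and 0.651. Floating controls were at 0.593, 0.482 and 1.02 CPM and floating GFI1 cells at 0.165, 0.551 and 0.0995. The groups overlapped in both conditions. In floating cells LGALS2 fell by 1.37 ± 0.54 on the log2 scale with GFI1 (adjusted p = 0.0306), a call lost without floating control replicate 3 (0.185), floating GFI1 replicate 1 (0.113) or floating GFI1 replicate 3 (0.144). In attached cells the log2 fold change was -0.73 ± 0.47. With suspension the value was -0.11 ± 0.45 in control cells (adjusted p = 0.877) and -0.75 ± 0.57 in GFI1 cells (0.354), and the difference was -0.64 ± 0.72 (0.662).

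LGALS7, a prototype galectin of stratified epithelia, had 0 counts in all 12 libraries and was not tested. At this depth a count of 0 allows up to 0.181 CPM in floating control replicate 2, the library with the highest floor. Its main transcript shares 56.5% of its stretches of 150 bases with another galectin transcript, and LGALS7B, its near-identical copy, was not tested either.

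LGALS8 encodes galectin-8, a tandem-repeat galectin that binds integrins and, on damaged vesicles, recruits the autophagy receptor CALCOCO2. It lies on chromosome 1, plus strand, from 236518000 to 236552981 (ENSG00000116977). It was at 38.3, 43.3 and 45.1 CPM in attached controls and 45.4, 42.8 and 45.1 in attached GFI1 cells, so these groups overlapped. Floating controls were at 60.2, 64.7 and 62.4 CPM and floating GFI1 cells at 55.2, 63.4 and 55.1. All 6 floating libraries lay above all 6 attached libraries.

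LGALS8 was higher with suspension by 0.56 ± 0.06 in control cells (1.48-fold, adjusted p = 6.78e-08) and by 0.38 ± 0.06 in GFI1 cells (1.30-fold, adjusted p = 2.74e-05). The difference between these effects was -0.18 ± 0.09 (adjusted p = 0.222), which passed the threshold without floating GFI1 replicate 2 (-0.27, adjusted p = 0.0372). With GFI1 the log2 fold change was 0.07 ± 0.06 for attached cells. For floating cells it was -0.11 ± 0.06 (adjusted p = 0.121). The floating value turned to 0.018 with libraries scaled by size only and passed the threshold without floating GFI1 replicate 2 (-0.17, adjusted p = 0.0170). HEATR1 overlaps LGALS8 on the other strand with 1381 to 2382 counts per library, against 643 to 1149 for LGALS8, and whether the counting used strand was not stated.

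LGALS4, a tandem-repeat galectin of the gut epithelium, was at 1.25, 1.74 and 1.72 CPM in attached controls and at 2.43, 4.03 and 2.49 in floating controls. In GFI1 cells it was at 2.03, 1.66 and 1.45 CPM attached and at 2.70, 2.15 and 2.54 floating. LGALS4 was higher with suspension by 0.92 ± 0.24 in control cells (adjusted p = 0.00342), without overlap. However, the value fell to 0.64 (adjusted p = 0.0527) without floating control replicate 2, the highest library. In GFI1 cells the value was 0.53 ± 0.24 (0.0949), and the difference between the effects was -0.39 ± 0.34 (0.554). Between GFI1 and control cells the difference was 0.11 ± 0.26 attached and -0.27 ± 0.22 floating (0.302).

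Levels of different galectins were compared per kilobase of the gene length deposited with the counts. That length was 1099 bases for LGALS1 and 2397 for LGALS3, while their main GENCODE transcripts have 528 and 958 bases. The shares therefore depend on the length used. In attached controls LGALS1 held 93.8% ± 0.4 (SD, n = 3) of the family's CPM per kb and LGALS3 held 4.33% ± 0.24. In attached GFI1 cells these shares were 68.6% ± 0.3 and 18.0% ± 0.4, and LGALS9B held 9.09% ± 0.36. In floating controls LGALS1 held 88.8% ± 0.4 and LGALS3 8.27% ± 0.36. In floating GFI1 cells LGALS1 held 49.5% ± 5.8, LGALS3 39.3% ± 7.1 and LGALS9B 7.51% ± 1.00, so the balance between LGALS1 and LGALS3 differed most between attached controls and floating GFI1 cells. The family's summed level per length was 363 ± 13 CPM per kb in attached controls, 351 ± 7 in attached GFI1 cells, 356 ± 4 in floating controls and 467 ± 59 in floating GFI1 cells. The first 3 means differed by less than the SD of the attached controls, and their difference was not tested.

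**Figure D4:**
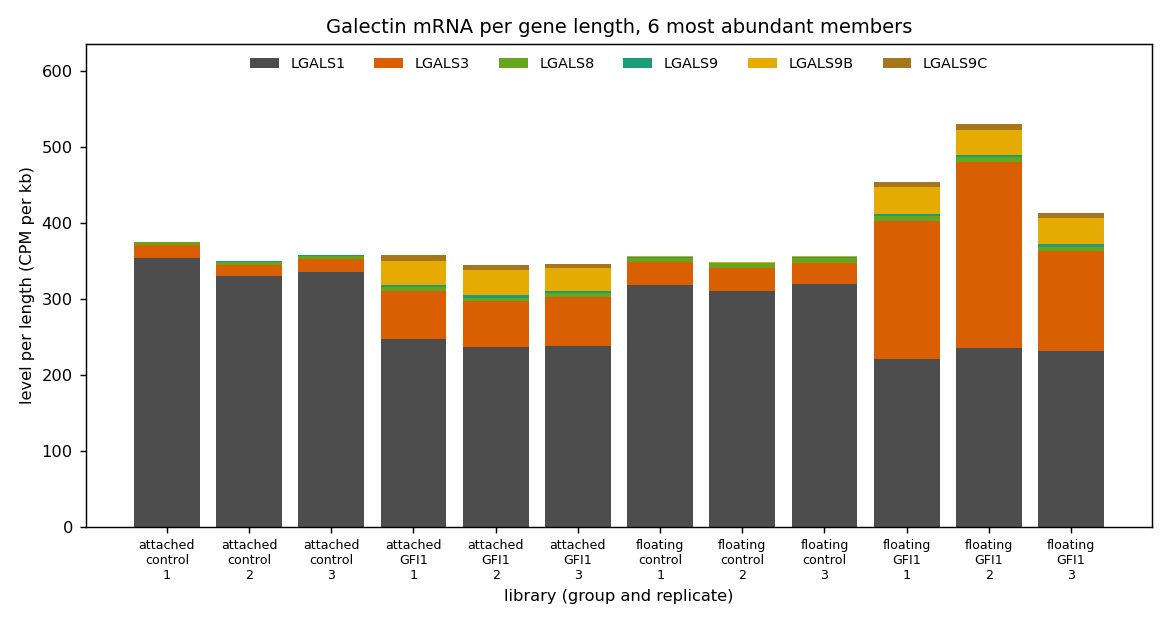
Level per gene length (CPM per kb) of LGALS1, LGALS3, LGALS8, LGALS9, LGALS9B and LGALS9C, stacked for each library. LGALS2 and LGALS4 are not drawn. In attached controls LGALS2 (mean 0.91 CPM per kb) exceeded LGALS9 (0.57), LGALS9B (0.31) and LGALS9C (0.060). Totals over the whole family, undrawn members included, lie between 346 and 377 CPM per kb in the 9 attached and floating control and attached GFI1 libraries. In the floating GFI1 libraries they lie between 415 and 532.

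Of the 8 other galectin genes in the human genome that were listed (LGALS7B, LGALS12, LGALS13, LGALS14, LGALS16, CLC, GRIFIN and LGALSL), 2 were kept for testing, namely LGALS12 and LGALSL. LGALS12, known from fat cells and myeloid cells, was 12.1-fold higher with GFI1 in floating cells (log2 SE 0.28), from 0.593, 0.181 and 0.623 CPM to 6.34, 6.18 and 4.78. In attached cells it was higher by 4.76 ± 0.38, from 1, 5 and 1 counts in the controls. The low-count filter kept LGALS12 through its GFI1 libraries, so these values are a description without p values. LGALSL, a galectin-like gene, fell with GFI1 by 1.28 ± 0.13 in attached cells (adjusted p = 7.58e-09) and by 0.46 ± 0.13 in floating cells (adjusted p = 0.00438). With suspension, LGALS12 rose by 1.77 ± 0.59 in control cells (adjusted p = 0.0181) and LGALSL fell by 0.40 ± 0.13 (adjusted p = 0.0121), calls that were lost without any of 4 libraries for LGALS12 (all but attached control replicate 2 and floating control replicate 2) and without attached control replicate 2 for LGALSL.

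Glycoproteins known to bind galectins moved in both directions with GFI1. Of 17 tested, 6 rose and 7 fell in floating cells, where 60.4% of all genes passed (29.3% higher and 31.1% lower), with a median log2 fold change of 0.078 beside 0.011 over all genes. With libraries scaled by size only, 10 were higher and 7 lower. LGALS3BP, a secreted glycoprotein that binds galectin-3, rose by 1.27 ± 0.05 (adjusted p = 8.48e-18), from 246.8 ± 10.7 to 595.2 ± 40.0 CPM (SD, n = 3 each). NRP1 (neuropilin-1), a receptor that galectin-1 binds, fell by 3.07 ± 0.05 (adjusted p = 2.72e-25). With suspension in control cells, 10 rose and 1 fell, where 40.1% of all genes passed (19.6% higher and 20.5% lower), with a median of 0.24 beside 0.011. FN1 (fibronectin) rose by 1.38 ± 0.04 (adjusted p = 8.02e-18), and the 1 that fell was EGFR, by 0.21 ± 0.06 (adjusted p = 0.0120), a call lost without attached control replicate 2 or floating control replicate 3.

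Enzymes that build or cap glycans were described in 2 lists. Galectin ligands themselves were not measured, so a rise or fall in these lists is not read as more or less ligand. Of 15 enzymes of N-glycan branching and N-acetyllactosamine synthesis, 5 rose and 6 fell with GFI1 in floating cells, beside 60.4% of all genes (29.3% higher and 31.1% lower), with a median of 0.063. FUT8, which adds core fucose, rose by 0.93 ± 0.07 (adjusted p = 2.18e-11), and B4GALT4, a galactosyltransferase, fell by 0.95 ± 0.05 (adjusted p = 1.91e-15). With suspension in control cells, 4 rose and 2 fell, beside 40.1% of all genes, with a median of 0.067. Of the galactosyltransferases, B4GALT5 rose by 0.47 ± 0.04 (adjusted p = 1.18e-09) and B4GALT2 fell by 0.46 ± 0.06 (adjusted p = 2.44e-07).

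Of 14 enzymes of O-glycan cores and of sialic acid capping, 7 rose and 5 fell with GFI1 in floating cells, beside 60.4% of all genes (29.3% higher and 31.1% lower), with a median of 0.15. C1GALT1, which makes the core 1 O-glycan, rose by 1.06 ± 0.05 (adjusted p = 4.73e-16). ST3GAL5, a sialyltransferase that makes the ganglioside GM3, fell by 2.75 ± 0.06 (adjusted p = 3.88e-22). With suspension in control cells, 6 rose and 0 fell, beside 40.1% of all genes (19.6% higher and 20.5% lower), with a median of 0.17. ST3GAL5 rose by 0.58 ± 0.05 (adjusted p = 2.78e-09).

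Of 12 genes of the response to damaged endomembranes, to which galectin-3, galectin-8 and galectin-9 are recruited, 9 rose and 1 fell with GFI1 in floating cells, where 60.4% of all genes passed (29.3% higher and 31.1% lower), with a median log2 fold change of 0.37. OPTN (optineurin), an autophagy receptor, rose by 0.92 ± 0.05 (adjusted p = 2.05e-14). The 1 that fell was TRIM16, which binds galectin-3 at damaged vesicles, by 0.30 ± 0.05 (adjusted p = 3.29e-05). With suspension in control cells, 5 rose and 1 fell, beside 40.1% of all genes (19.6% higher and 20.5% lower), with a median of 0.15. RB1CC1 rose by 0.48 ± 0.06 (adjusted p = 2.31e-07) and TRIM16 fell by 0.24 ± 0.05 (adjusted p = 0.000749).

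Genes known to respond to interferon were listed as a reference for LGALS9. Of 10, 9 rose and 0 fell with GFI1 in floating cells, where 60.4% of all genes passed (29.3% higher and 31.1% lower), with a median log2 fold change of 2.43 beside 0.011 over all genes. Without floating GFI1 replicate 3, the counts were 9 and 1. IRF1, a transcription factor of the interferon response, rose by 2.90 ± 0.05 (adjusted p = 4.77e-24), from 23.0 ± 1.4 to 171.5 ± 6.2 CPM. With suspension in control cells, 5 of the 10 rose and 1 fell, beside 40.1% of all genes (19.6% higher and 20.5% lower), with a median of 0.23. STAT2, a transcription factor that carries the interferon signal, rose by 0.30 ± 0.06 (adjusted p = 0.000413).

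**Figure D5:**
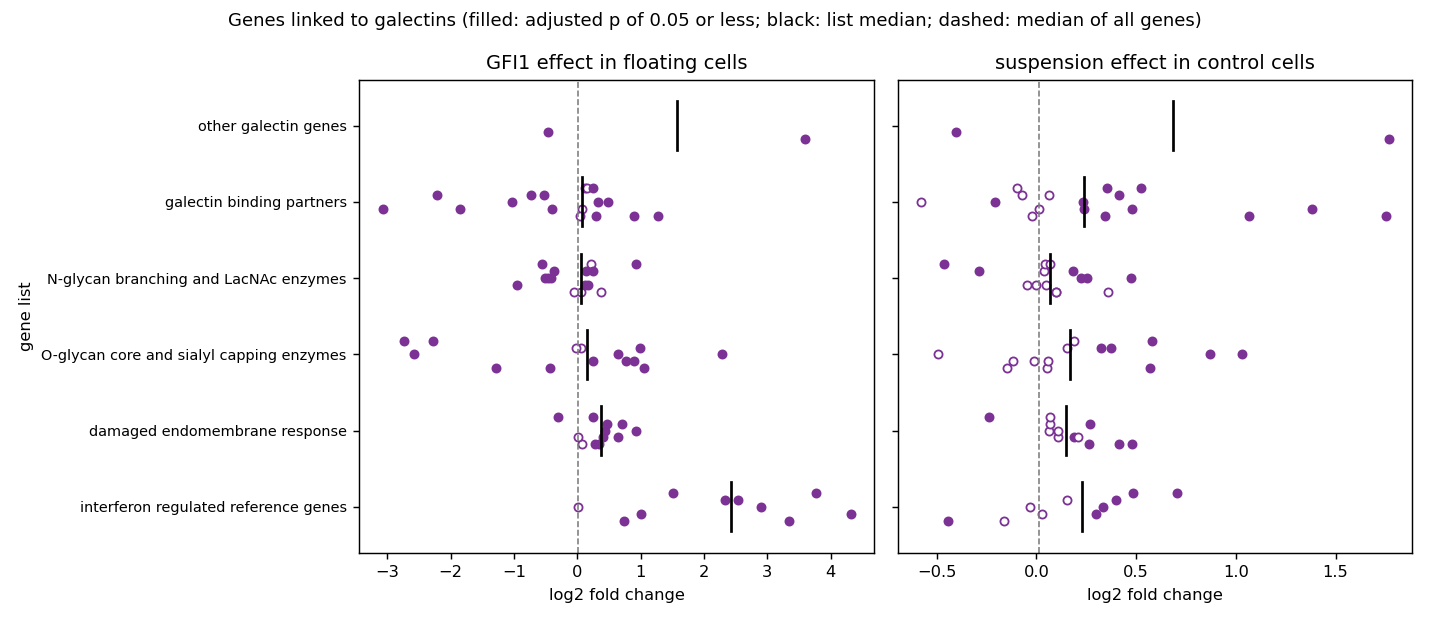
Log2 fold change of each tested gene of the 6 lists with GFI1 in floating cells (left) and with suspension in control cells (right), on axes that differ in range. Filled points have an adjusted p of 0.05 or less, black bars are list medians and the dashed line is the median of all genes (0.011 in both panels). The interferon list has the highest median among lists of 10 or more genes on the left, at 2.43.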

How the data were processed

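Poly-A selected mRNA of 12 libraries was sequenced on an Illumina NovaSeq instrument. The deposited values are raw counts per gene, made by the authors. The study's methods name FastQC, Hisat2 and featureCounts, while the submitters' processing notes name Bowtie2, HTSeq and hg38, so which aligner and counter made the table is not settled. The annotation release, the strand setting and the treatment of reads that match several genes are not given in the sources used here, and the latter affects LGALS9B, LGALS9C and LGALS7. In the table, 27 gene symbols had become dates and were restored from gene identifiers. The depth was 17014188 to 20748677 counts per library. Floors cover counting error only.

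Groups and replicate numbers came from the labels. Counts were analysed with edgeR 4.0.16 (R 4.3.3): filterByExpr (minimum count 10, minimum total 15), TMM scaling, and 1 quasi-likelihood model with 4 group means (biological coefficient of variation 4.86%). The filter kept 17829 genes. The 5 contrasts were tested two-sided with Benjamini-Hochberg adjustment over all genes within each, at 0.05 with no fold threshold. The planned tests of suspension and of the interaction for LGALS9, LGALS9B and LGALS9C are not reported, since the attached libraries led to their choice. The same design was run with DESeq2 1.42.0 as an alternative. The other alternatives were RLE size factors, library size only, no low-count filter, 10 counts in every library, only the groups compared, a replicate block, the summed LGALS9 copies and leaving out each library. Those for the lists were added after the data were seen. On simulated counts the script recovered the genes changed. Promoters came from the RefSeq table (GRCh38.p14) and transcripts from GENCODE v44, aligned with Biopython 1.88.

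The members, the 6 related lists and the motifs were chosen with earlier results of these data known. Named genes are the 9 galectins, GFI1 and, per list, whichever genes had the smallest adjusted p among those higher and among those lower, for GFI1 in floating cells and for suspension in control cells, plus members that a count of 5 or fewer needs. The 3 protein-coding genes most correlated with each galectin and its nearest protein-coding neighbours were also taken. A few named by this rule are not reported here. HEATR1 and the marker genes were named beside results they touch.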

Additional observations from a re-analysis of the deposited data

Results flagged for a closer look

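Both results here were picked out because an effect of suspension differed between GFI1 and control cells by the interaction test. LGALS3 rose with suspension by 0.90 ± 0.14 on the log2 scale in control cells and by 1.57 ± 0.12 in GFI1 cells, a difference of 0.66 ± 0.18 (adjusted p = 0.0186). Over the leave-one-out fits, the difference ran from 0.40 without floating GFI1 replicate 2 to 0.86 without floating GFI1 replicate 3.

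LGALSL changed with suspension by -0.40 ± 0.13 in control cells and by 0.41 ± 0.14 in GFI1 cells (adjusted p = 0.0121 and 0.0316), a difference of 0.81 ± 0.19 (adjusted p = 0.00575). Its level was 10.4, 12.2 and 9.53 CPM in attached controls, 8.12, 8.01 and 8.16 in floating controls, 5.41, 3.55 and 4.41 in attached GFI1 cells, and 5.74, 5.73 and 6.12 in floating GFI1 cells. The direction differed between control and GFI1 cells, and the difference ran from 0.67 to 0.97 over the leave-one-out fits (adjusted p from 0.00142 to 0.0242).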

How the results depend on the processing

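The GFI1 effects on LGALS1, LGALS3, LGALS9, LGALS9B and LGALS9C in floating cells kept their direction and their calls under every alternative that gave a value, as did the suspension effects on LGALS3 and LGALS8 in both cell types. Scaling by library size only raised the median of all genes to 0.14 in both GFI1 contrasts and the share of calls that were higher from 47.4% to 61.5% (attached) and from 48.5% to 61.4% (floating), and it turned LGALS8 in floating cells to 0.018. Over all 8 galectins, copies included, the number past the threshold of the interaction went from 2 to 1 with DESeq2 and ranged from 1 to 3 without single libraries. LGALS9B is among the 2, and its choice used the attached libraries, so nothing is read from this count. With the LGALS9 copies summed, 3 rather than 5 genes were counted in attached cells, since 3 rows became 1. Without single libraries, the count in control suspension ranged from 3 to 5 against 6, LGALS9B and LGALS9C among the 6, with 3 without floating control replicate 2. For each related list, the total number of calls stayed within 1.5 times under the 4 alternatives run for the lists (DESeq2, RLE size factors, library size only and without floating GFI1 replicate 3), except that suspension in GFI1 cells called 1 rather than 2 of the other galectin genes without floating GFI1 replicate 3. By direction, the binding partners that were higher with GFI1 in floating cells went from 6 to 10 with library size only, and the O-glycan enzymes that were lower with suspension in GFI1 cells from 1 to 2 without floating GFI1 replicate 3. Values close to 0 that changed sign without a single library were LGALS2 with suspension in control cells (range -0.49 to 0.11, with 0.0028, 0.11 and 0.093 without attached control replicate 2, attached control replicate 3 and floating control replicate 2), LGALS9 with suspension in GFI1 cells (-0.14 to 0.025, with 0.0087 without attached GFI1 replicate 2) and the LGALS1 interaction (-0.0017 to 0.059). The causes were not tested. Same-numbered libraries did not deviate together (correlations of deviations from -0.031 to 0.031 over 18 pairs), so no pairing by number was seen. Pairs with different numbers also lay near 0, and with 3 libraries per group this check cannot exclude pairing. A replicate block changed 1 call, that of LGALS1 with suspension in control cells (-0.11, adjusted p = 0.0515). Few counts limit LGALS2, LGALS4, LGALS7, LGALS9B and LGALS9C, whose control libraries held 0 to 67 counts, and LGALS9, whose control libraries held 55 to 73.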

Other observations

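The genes whose log2 CPM followed each galectin most closely over the 12 libraries were taken by Pearson correlation among 11885 protein-coding genes (11886 for LGALS2), as a description, since the libraries share groups and many genes follow the same 4 group means. For LGALS9 these were NR0B1 (r = 0.998), MDGA1 (0.997) and CBLB (0.996), a ubiquitin ligase of immune signalling. For LGALS9B they were CAPN5 (0.998), SYTL2 (0.997) and WNT9A (0.997), and for LGALS9C ADAMTS14 (0.997), SUSD6 (0.996) and TRIM21 (0.995), an antibody-binding ubiquitin ligase. For LGALS3 they were PSD4 (0.994), PHF1 (0.994) and GRAMD4 (0.992). For LGALS1 they were VDAC1 (0.993), OLA1 (0.992) and CD276 (0.992). For LGALS8 they were OGT (0.975), the enzyme that adds N-acetylglucosamine to cytosolic and nuclear proteins, ANKZF1 (0.971) and LMAN1 (0.968). The 2 galectins with few counts had lower values, among them ARL1 (0.925) and NR1H3 (0.904) for LGALS4, and RNASEH2B (0.841), IGF2BP3 (0.841) and GTPBP8 (0.838) for LGALS2.

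Of the protein-coding neighbours, KSR1, a scaffold of the ERK pathway that lies 3360 bases from LGALS9, rose with GFI1 in floating cells by 1.49 ± 0.05 on the log2 scale (adjusted p = 6.40e-18). It was at 39.4, 34.8 and 37.3 CPM in floating controls and at 103.4, 101.6 and 107.8 CPM in floating GFI1 cells. EDARADD, 15085 bases from LGALS8, fell by 4.17 ± 0.21 (adjusted p = 6.18e-15). Beside LGALS3, MAPK1IP1L rose by 0.43 ± 0.04 (adjusted p = 1.39e-09) and DLGAP5 fell by 0.28 ± 0.05 (adjusted p = 4.27e-05). Beside LGALS9B, SPECC1, 130369 bases away, rose by 0.22 ± 0.05 (adjusted p = 0.000500), while CDRT15L2 on its other side and both neighbours of LGALS9C, EVPLL and TBC1D28, were not kept for testing.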
